A study of Homo sapiens with 6 samples.

Results

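The genes described here are 10 that are widely used as readouts of the cellular response to low oxygen and of glucose uptake: EGLN3, MXI1, HK2, SLC2A1, VEGFA, CA9, PDK1, BNIP3, NDRG1 and ADM. They were taken by symbol from the array's probe set annotation, keeping probe sets with a single gene symbol, and 9 of the 10 were found, with 19 probe sets among the 41091 that carry 1 symbol. These 9 are set against all 19775 genes measured in this way, and CA9 was not analysed here. RNA came from CaSki cells, an established human cervical squamous carcinoma line with integrated papillomavirus DNA, grown in RPMI1640 medium with serum. The treated cells received recombinant TGF-β1 at 2 ng/mL, and the untreated cells the same medium without it. Each group had 3 arrays. The labels used here state no oxygen condition, no time of treatment and no separate cultures, and p-values therefore rest on a spread between arrays that may be technical only.

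Cells sense oxygen through prolyl hydroxylases, encoded by the EGLN genes, which mark the α subunits of hypoxia-inducible factors (HIF) for VHL-dependent destruction. When oxygen is low, HIF accumulates, binds DNA with its partner ARNT and switches on genes for glucose uptake, glycolysis, blood vessel growth and the removal of mitochondria. Several of these genes also respond to other inputs, such as growth factors and the transcription factor MYC, so their levels are not a measure of oxygen by themselves.

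The group split with TGF-β1 treatment. EGLN3, MXI1, HK2, PDK1 and BNIP3 fell between 1.22-fold and 1.59-fold, SLC2A1 and VEGFA rose 1.34-fold and 1.44-fold, and NDRG1 and ADM did not pass the test. Of the 9 measured genes 5 were thus called lower, against 4.47% of all 19775 genes, and 2 were called higher, against 4.03% (limma, adjusted p below 0.05). Together 7 of 9 were called where 8.50% of all genes were. All 9 lay above the median level of all probe sets, as did 13107 of the 19775 genes. When only probe sets above that median were fitted, 2296 of these 13107 genes were called, with 5 of the 9 lower and 2 higher. The 9 genes, and the lists used further on, were chosen with earlier results of these data known. Their shares of calls therefore describe these genes and do not test them as a group. The ranges of the groups did not overlap in 7 of the 9 genes, against 29.2% of all genes. They were the same 7 genes that were called, so this count repeats the calls and adds no further support. The median difference over the 9 genes was -0.28 on the log2 scale, beside -0.0027 over all genes. Without both arrays numbered 1 the counts were 2 lower and 1 higher. They were 3 lower and 1 higher when any untreated array, or treated array 2 or 3, was left out, and 4 lower and 2 higher without treated array 1, while every one of the 7 differences kept its sign in these fits.

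**Figure D1:**
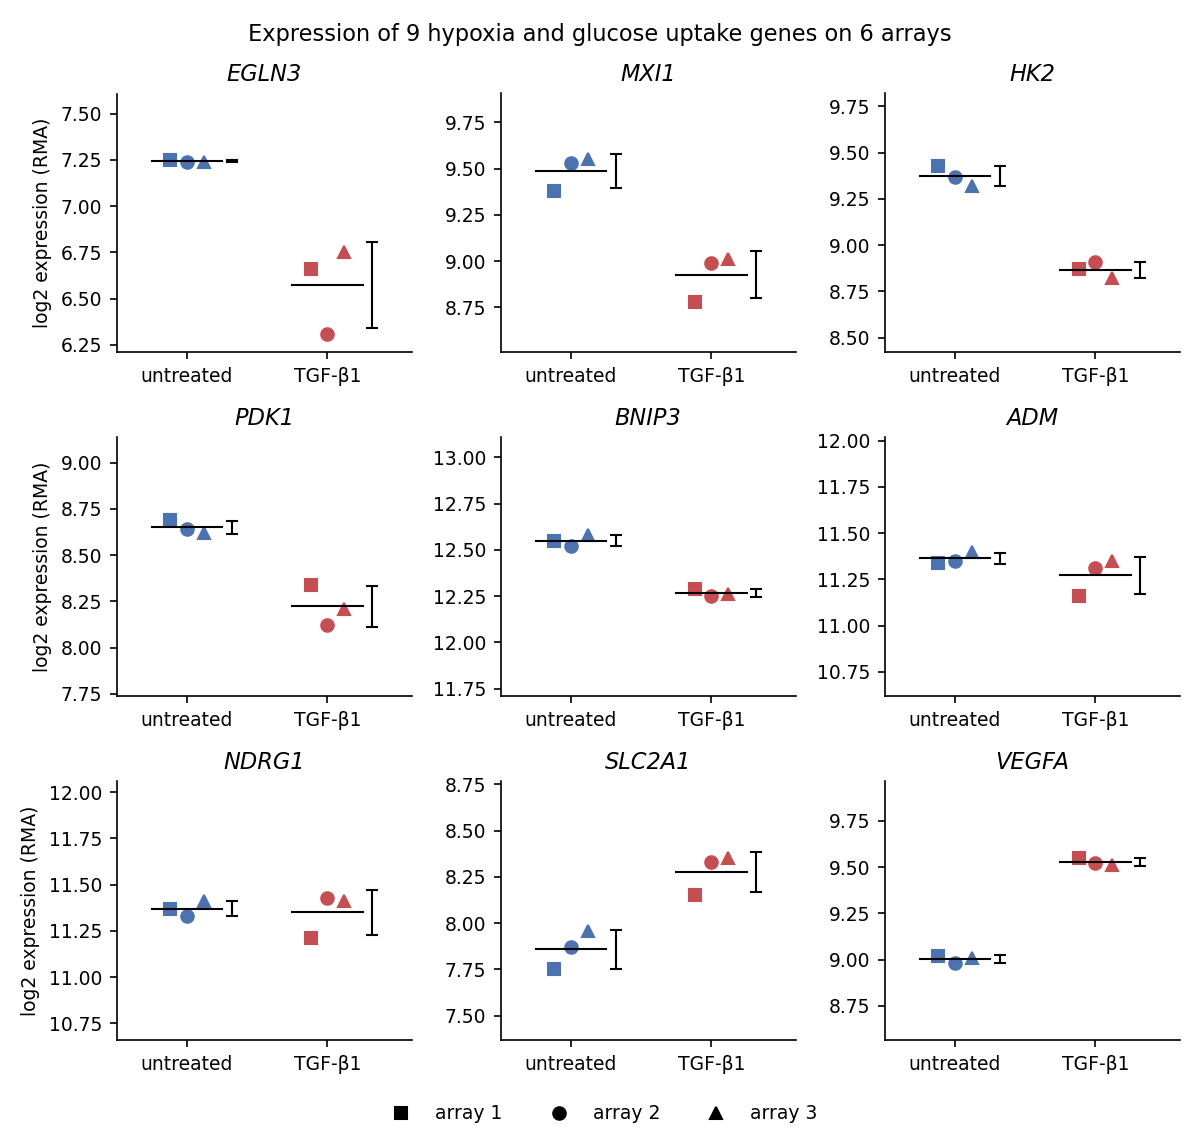
Log2 expression of the brightest probe set of each of the 9 measured genes (vertical axis, with the same span in each panel) on the 3 untreated (blue) and 3 TGF-β1-treated (red) arrays. Symbols mark the array number, horizontal lines the group means and error bars 1 SD. Treated values lie wholly below untreated ones for EGLN3, MXI1, HK2, PDK1 and BNIP3 and wholly above them for SLC2A1 and VEGFA, and the groups overlap for ADM and NDRG1.

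HIF binds a short core sequence, A or G followed by CGTG. To show what lies directly upstream of the 10 genes, the 250 bases before the RefSeq start sites (GRCh38.p14) were searched for ACGTG and GCGTG on both strands. There were 12 such windows, from 8 of the 10 genes. These include ADM, which did not pass, and CA9, which has no value here, and some genes have several windows. The promoters of VEGFA and NDRG1 were not analysed here. ACGTG was found in 6 of the 12 windows and GCGTG in 6, while 18.5% and 32.2% of all 35116 windows of this length held them. The windows of these genes were 35.6% to 81.6% G and C, against a median of 58.0% over all windows, and both motifs are rich in these bases. Of the windows printed below, those with ACGTG were at 76.4% to 81.6%, and those of EGLN3 and SLC2A1 at 64.0% and 72.4%. The CA9 window, which also holds ACGTG, was at 60.4%. The part of base composition in the matches was not tested. The 6 sequences below compare genes that fell and hold ACGTG (BNIP3, PDK1, HK2, MXI1) with a gene that fell (EGLN3) and a gene that rose (SLC2A1) without it. They read 5′ to 3′ toward the start site, and capitals mark ACGTG or, where the match is on the other strand, CACGT.
BNIP3: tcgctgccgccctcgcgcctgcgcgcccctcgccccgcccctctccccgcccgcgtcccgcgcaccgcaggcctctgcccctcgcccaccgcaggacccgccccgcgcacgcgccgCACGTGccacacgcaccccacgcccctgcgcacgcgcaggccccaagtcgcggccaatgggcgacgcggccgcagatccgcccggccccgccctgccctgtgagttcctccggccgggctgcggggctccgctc
PDK1: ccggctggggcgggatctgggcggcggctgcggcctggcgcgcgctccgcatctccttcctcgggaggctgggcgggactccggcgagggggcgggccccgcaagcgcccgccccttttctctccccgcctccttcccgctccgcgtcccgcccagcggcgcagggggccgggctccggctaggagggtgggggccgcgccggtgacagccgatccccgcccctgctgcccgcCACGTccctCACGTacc
HK2: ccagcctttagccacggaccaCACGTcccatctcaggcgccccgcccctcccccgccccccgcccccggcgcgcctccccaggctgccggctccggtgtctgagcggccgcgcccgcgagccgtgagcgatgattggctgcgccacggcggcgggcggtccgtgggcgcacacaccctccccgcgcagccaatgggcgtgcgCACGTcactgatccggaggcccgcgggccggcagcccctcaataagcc
MXI1: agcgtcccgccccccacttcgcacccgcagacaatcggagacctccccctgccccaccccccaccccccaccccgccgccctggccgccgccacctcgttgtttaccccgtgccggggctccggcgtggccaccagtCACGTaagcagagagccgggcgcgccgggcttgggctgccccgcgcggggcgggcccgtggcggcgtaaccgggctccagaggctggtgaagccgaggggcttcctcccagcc
EGLN3: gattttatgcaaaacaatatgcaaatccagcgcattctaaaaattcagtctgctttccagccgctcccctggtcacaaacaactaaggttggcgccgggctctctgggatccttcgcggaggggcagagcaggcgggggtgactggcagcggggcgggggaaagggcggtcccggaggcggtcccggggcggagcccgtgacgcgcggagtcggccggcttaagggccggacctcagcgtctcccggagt
SLC2A1: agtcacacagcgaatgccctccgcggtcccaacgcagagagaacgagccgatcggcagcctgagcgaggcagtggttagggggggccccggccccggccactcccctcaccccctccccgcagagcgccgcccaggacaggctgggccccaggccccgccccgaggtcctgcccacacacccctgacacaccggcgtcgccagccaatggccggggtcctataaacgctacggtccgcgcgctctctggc

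The BNIP3 window (chr10:131981924-131982173, minus strand) holds CACGTG, which reads the same on both strands, so its ACGTG matches number 2 and overlap. CACGTG is also the E-box bound by dimers of MYC, MXI1 and MAX proteins, and 6.34% of all windows hold it. The PDK1 window (chr2:172555840-172556089, plus strand) lies before the downstream of 2 annotated starts and has 2 matches, the nearer one 3 bases from the start. The other PDK1 start has no match. The HK2 window shown (chr2:74833877-74834126, plus strand) has 2 matches, and the window of the second HK2 start holds CACGTG at 2 places. Of the 3 annotated MXI1 starts, the window shown (chr10:110209981-110210230, plus strand) is the one with ACGTG, 108 bases from the start. The windows of EGLN3 (chr14:33951075-33951324, minus strand) and SLC2A1 (chr1:42958869-42959118, minus strand) hold neither core. That says only that these letters are not in these windows. ADM has 1 GCGTG and no ACGTG, and CA9, which has no value here, has 1 ACGTG that ends 13 bases before its start.

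EGLN3 encodes the prolyl hydroxylase PHD3, an oxygen sensor that is itself a HIF target and so part of a feedback loop. Its brightest probe set read 7.25, 7.24 and 7.24 (log2) on untreated arrays 1 to 3 and 6.66, 6.31 and 6.75 on treated arrays 1 to 3. The untreated values were nearly identical, the treated ones were spread more widely, and every treated array was lower. EGLN3 fell 1.59-fold, by 0.67 ± 0.11 on the log2 scale (SE, limma adjusted p = 0.011), from 7.24 ± 0.0058 to 6.57 ± 0.233 (SD, n = 3), the largest difference among the 9 genes. A second, dimmer probe set fell by 0.61 (adjusted p = 0.024 over all probe sets), from 5.40, 5.59 and 5.66 to 5.09, 4.76 and 4.97. Without both arrays numbered 1 the difference was -0.71 with an adjusted p of 0.085. The other 2 EGLN genes did not pass: EGLN1, the main oxygen sensor, differed by -0.14 with a 95% interval from -0.34 to 0.06, and EGLN2 by -0.17 at a level below the median of all probe sets. On the EGLN1 probe sets at levels of 8.04 and 6.52 the differences were larger, at -0.24 and -0.25 (limma adjusted p = 0.17 for both, over all probe sets). The dimmest EGLN1 probe set, at 3.11, differed by -0.015.

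MXI1 encodes a repressor that binds MAX in place of MYC. On untreated arrays 1 to 3 its single probe set read 9.38, 9.53 and 9.55 (log2), and on the treated arrays 8.78, 8.99 and 9.01. Array 1 was lowest in both groups, and the lowest untreated value was above the highest treated one. MXI1 fell 1.48-fold, by 0.56 ± 0.09 on the log2 scale (SE, limma adjusted p = 0.009), from 9.49 ± 0.0933 to 8.93 ± 0.128 (SD, n = 3). The call held in all 18 alternative analyses, with differences between -0.61 and -0.49.

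Glucose enters most cells through SLC2A1, the transporter GLUT1. Its brighter probe set read 7.75, 7.87 and 7.96 (log2) on the untreated and 8.15, 8.33 and 8.35 on the treated arrays. Array 1 was again the lowest of each group, and all treated values exceeded all untreated ones. SLC2A1 rose 1.34-fold, by 0.42 ± 0.09 on the log2 scale (SE, limma adjusted p = 0.027), from 7.86 ± 0.104 to 8.28 ± 0.113 (SD, n = 3). The other SLC2A1 probe set, at a mean level of 3.56 below the median, differed by 0.19 (adjusted p = 0.67 over all probe sets). Leaving out untreated array 1, 2 or 3 ended the call (adjusted p = 0.089, 0.084 and 0.052), as did leaving out treated array 2 or 3 (0.089 and 0.085). The call was also lost without both arrays numbered 1 (0.063), with the mean of both probe sets (0.17), without probe sets that share sequence between transcripts (0.62) and with adjustment over all probe sets (0.055).

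HK2 encodes hexokinase 2, which traps glucose in the cell by phosphorylation. On the untreated arrays its brightest probe set read 9.43, 9.37 and 9.32 (log2), and on the treated arrays 8.87, 8.91 and 8.82. The groups lay far apart, with little spread inside either. HK2 fell 1.42-fold, by 0.51 ± 0.07 on the log2 scale (SE, limma adjusted p = 0.004), from 9.37 ± 0.0531 to 8.87 ± 0.0436 (SD, n = 3). So HK2 fell while SLC2A1, which precedes it in glucose use, rose. Of the 2 other HK2 probe sets, one differed by -0.13 at a level of 4.81 and one by 0.0076 at 3.98, below the median, and neither passed. With the mean of all 3 probe sets the difference was -0.21 and the call was lost (adjusted p = 0.11). HK1, the widely expressed hexokinase, differed by 0.02 with a 95% interval from -0.15 to 0.19.

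PDK1 encodes a kinase that shuts off the pyruvate dehydrogenase complex and so keeps pyruvate out of the mitochondrial citrate cycle. Its brightest probe set read 8.69, 8.64 and 8.62 (log2) on the untreated and 8.34, 8.12 and 8.21 on the treated arrays. Treated array 1 was the nearest to the untreated arrays, but lay below all 3. PDK1 fell 1.34-fold, by 0.43 ± 0.08 on the log2 scale (SE, limma adjusted p = 0.016), from 8.65 ± 0.0343 to 8.22 ± 0.110 (SD, n = 3). Neither of its other 2 probe sets passed: their differences were -0.22 at a level of 5.94 and -0.04 at 3.87. Leaving out untreated array 1, 2 or 3 ended the call (adjusted p = 0.061, 0.058 and 0.055), as did leaving out treated array 2 or 3 (0.057 and 0.054). The call was also lost without both arrays numbered 1 (0.053) and with the mean of the 3 probe sets (0.078), while the difference stayed between -0.48 and -0.23 in all 18 alternatives.

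BNIP3 encodes a protein of the outer mitochondrial membrane that marks mitochondria for removal by autophagy. It read 12.55, 12.52 and 12.58 (log2) on the untreated and 12.29, 12.25 and 12.26 on the treated arrays. The difference was the smallest of the called ones, and the spread within each group was small. BNIP3 fell 1.22-fold, by 0.28 ± 0.07 on the log2 scale (SE, limma adjusted p = 0.036), from 12.55 ± 0.0298 to 12.27 ± 0.0214 (SD, n = 3). A second probe set, at 11.27, 11.39 and 11.43 against 10.95, 11.03 and 11.11, was also lower on every treated array and differed by -0.33 (adjusted p = 0.088 over all probe sets). The call was lost when any of the 6 arrays was left out, with adjusted p = 0.10, 0.097 and 0.12 for untreated arrays 1 to 3 and 0.056, 0.11 and 0.096 for treated arrays 1 to 3. It was lost too without both arrays numbered 1 (0.11), with the replicate number as a block (0.067), without shared-sequence probe sets (0.056) and with adjustment over all probe sets (0.092). BNIP3L, its closest relative and also a mitophagy receptor, differed by 0.14 (95% interval from -0.02 to 0.29) on its brightest probe set. Its second probe set, at a similar level of 10.48 against 10.73, differed by -0.10, and neither passed.

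VEGFA encodes the main growth factor of blood vessels. Its brightest probe set read 9.02, 8.98 and 9.01 (log2) on the untreated and 9.55, 9.52 and 9.51 on the treated arrays. Both groups were tight and far apart. VEGFA rose 1.44-fold, by 0.53 ± 0.07 on the log2 scale (SE, limma adjusted p = 0.0025), from 9.0 ± 0.0230 to 9.53 ± 0.0205 (SD, n = 3), and had the smallest p of the 9 genes. The next brightest of its 4 probe sets rose by 0.43 (adjusted p = 0.047 over all probe sets), from 6.79, 6.99 and 7.0 to 7.46, 7.31 and 7.31. The other 2 did not pass and had overlapping groups, with differences of 0.29 at a level of 6.02 and 0.20 at 5.31. The VEGFA call held in all 17 alternatives that measured it, with differences from 0.36 to 0.54.

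ADM and NDRG1 are strongly induced by low oxygen in many cell types. ADM, which encodes the vasodilator peptide adrenomedullin, read 11.34, 11.35 and 11.40 (log2) on the untreated and 11.16, 11.31 and 11.35 on the treated arrays. It differed by -0.09 (limma adjusted p = 0.52), and the 95% interval ran from -0.27 to 0.08. NDRG1, which encodes a protein linked to differentiation and stress, read 11.37, 11.33 and 11.41 on the untreated and 11.21, 11.43 and 11.41 on the treated arrays. The difference was -0.02 (limma adjusted p = 0.89), and the 95% interval ran from -0.21 to 0.17. For both genes the groups overlapped and treated array 1 was the lowest array. These intervals leave out changes as large as those of EGLN3, MXI1 and HK2.

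**Figure D2:**
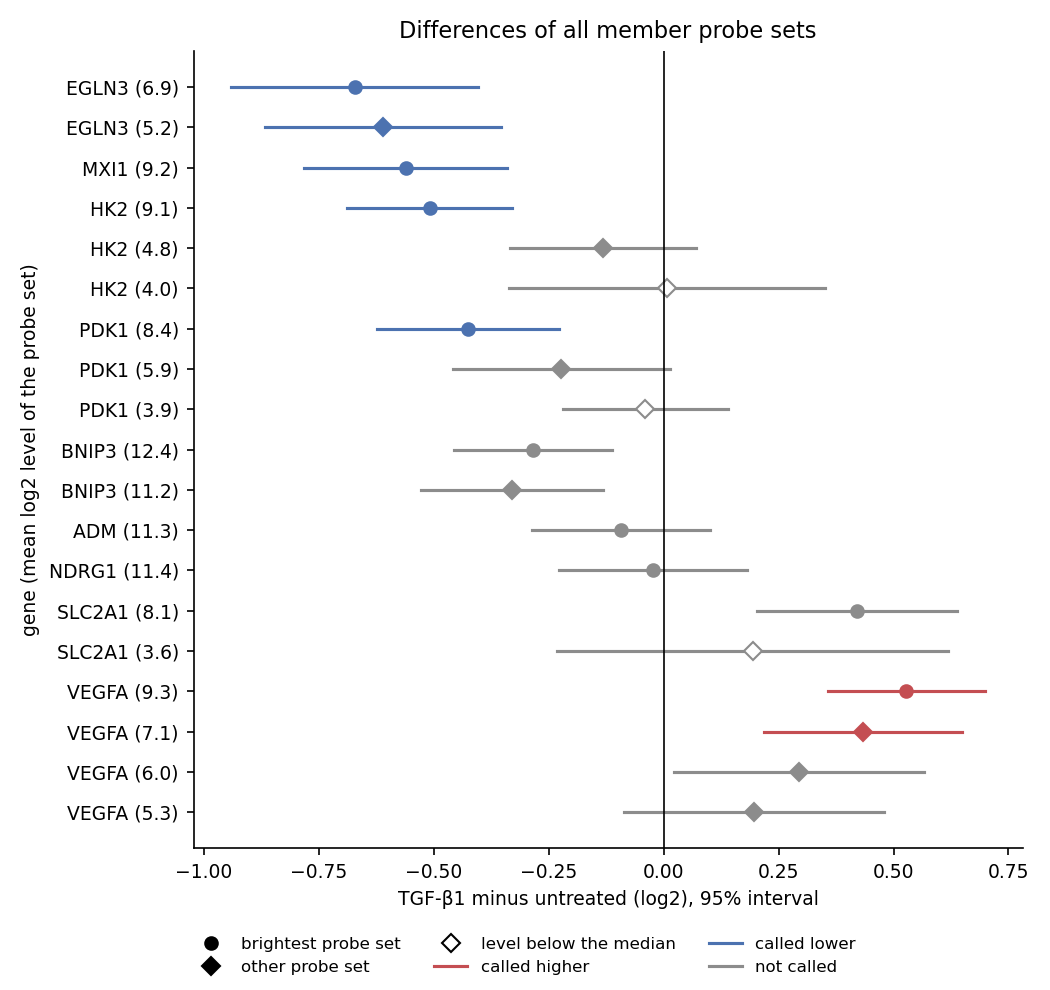
Difference between TGF-β1-treated and untreated arrays (log2, horizontal axis) with its 95% interval for all 19 probe sets of the 9 genes, labelled with the mean log2 level of the probe set. Colours show calls after adjustment over all 54613 probe sets, under which BNIP3 and SLC2A1 are not called. Probe sets of 1 gene point the same way except the dimmest HK2 probe set, at 0.0076, and in most genes the dimmer ones lie nearer to 0.

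The probe sets of a gene mostly had the same sign, as the plot of all 19 shows. In HK2, PDK1, SLC2A1 and VEGFA the difference was smaller on each dimmer probe set, whereas the second probe sets of EGLN3 and BNIP3 differed by -0.61 and -0.33, beside -0.67 and -0.28 on the brightest. The level alone did not order these differences across genes: the second EGLN3 probe set lay at 5.24, below the VEGFA probe set at 6.02 that differed by 0.29. Of all 54613 probe sets, 3.24% were called, and of the 19 here 7 were: both of EGLN3, the single MXI1 probe set, the brightest of HK2 and PDK1, and 2 of VEGFA.

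Beside EGLN3, which was called lower and is left out of the count here, 18 HIF subunits, oxygen sensors and regulators were measured. Of these 0 were called higher, 1 was called lower and 17 did not pass (limma; 4 had an unadjusted p below 0.05), with a median difference of -0.03 (log2). That share is near the 8.50% called among all genes, and in 5 of the 18 the groups did not overlap, near the 29.2% of all genes. The called gene was CITED2, a HIF target whose protein competes with HIF for the coactivators p300 and CBP. It fell 1.66-fold (limma adjusted p = 6.2e-04), from 7.90, 7.87 and 7.87 to 7.21, 7.11 and 7.13. Neither of the other 2 CITED2 probe sets passed, with differences of -0.15 at a level of 5.07 and -0.49 at 5.02. HIF1A, the oxygen-regulated subunit, differed by -0.07 with a 95% interval from -0.22 to 0.09. HIF1A is controlled mainly at the level of protein stability, which these arrays do not measure.

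Other genes commonly induced by low oxygen moved both ways. Of 28 listed, 27 were measured, of which 3 were called higher and 6 lower, against 4.03% and 4.47% of all genes. Their median difference was -0.09. P4HA2, a collagen prolyl hydroxylase, rose 1.68-fold and LOX, which crosslinks collagen, 1.48-fold (limma adjusted p = 0.0037 and 0.0025). ZNF395, a transcription factor, fell 1.66-fold and TFRC, the transferrin receptor, 1.42-fold (adjusted p = 0.0015 and 0.0055). These 4 calls held whichever single array was left out, but without both arrays numbered 1 that of TFRC was lost (adjusted p = 0.055). ZNF395 did not pass on its second probe set (-0.26, mean level 6.14, adjusted p = 0.48 over all probe sets). BHLHE40 rose 1.34-fold and its paralog BHLHE41 was 1.84-fold lower, both being transcriptional repressors, and PPFIA4, PFKFB4, which makes a regulator of glycolysis, and AK4, a mitochondrial adenylate kinase, were 1.45-fold, 1.29-fold and 1.26-fold lower. Each of these last 5 calls was lost in 2 to 5 of the 6 fits that leave out a single array, with an adjusted p of at most 0.11. The next brightest probe sets of BHLHE40, BHLHE41, PFKFB4 and AK4 differed by 0.44, -0.41, -0.12 and -0.17. None of these passed with adjustment over all probe sets, and that of AK4 lay at 10.34, near the 10.61 of its brightest.

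Of 19 measured glycolytic enzymes 2 were called, a share near the 8.50% of all genes. PKM, the pyruvate kinase that ends glycolysis, was called higher, at 1.52-fold (limma adjusted p = 0.0038), and LDHB, a lactate dehydrogenase subunit, lower, at 1.25-fold (adjusted p = 0.038), with a median difference of -0.05. PKM read 9.65, 9.54 and 9.42 on the untreated and 10.15, 10.18 and 10.08 on the treated arrays, and its dimmer probe set, at 5.32, differed by -0.21 without passing. The LDHB call was lost in all 6 fits that leave out a single array, with an adjusted p of at most 0.13. Among 13 other hexose transporters 1 was called, again near the share over all genes. This was SLC2A12, which rose 1.69-fold (adjusted p = 0.0093), from 6.29, 6.8 and 6.5 to 7.35, 7.26 and 7.25, and its second probe set rose by 0.54 (adjusted p = 0.034 over all probe sets). The call was lost without both arrays numbered 1 (adjusted p = 0.072). SLC2A3, the neuronal and hypoxia-induced transporter GLUT3, differed by 0.02 at a level of 3.59, below the median.

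Around PDK1, the pyruvate dehydrogenase complex and its regulators gave 2 calls, both lower, among 10 measured genes, where 4.47% of all genes were called lower. PDP1, the phosphatase that opposes PDK1 and reactivates the complex, fell 1.55-fold (limma adjusted p = 0.0016), from 10.19, 10.08 and 10.14 to 9.53, 9.56 and 9.45, and its second probe set fell by 0.74. DLAT, the acetyltransferase subunit of the complex, fell 1.52-fold (adjusted p = 0.002), and its second probe set fell by 0.49 (adjusted p = 0.017 over all probe sets), while the dimmest differed by -0.38 and did not pass. A kinase, the opposing phosphatase and a subunit of their target were therefore all lower. PDK2, PDK3 and PDK4 did not pass, at 0.17, -0.08 and -0.20, PDK4 at a level below the median.

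Beside MXI1, 2 of 11 other measured genes of the MYC and MAX network were called, against 8.50% of all genes. MYC, which MXI1 opposes, fell 1.96-fold (limma adjusted p = 2.2e-04), from 9.94, 9.83 and 9.81 to 8.95, 8.84 and 8.86. MLXIP, a glucose-responsive factor also known as MondoA, rose 1.66-fold (adjusted p = 5.4e-04), from 8.04, 7.97 and 7.99 to 8.71, 8.75 and 8.73, and its second probe set, at 7.92, rose by 0.76. MAX, the shared partner of MYC and MXI1, differed by 0.02 with a 95% interval from -0.15 to 0.18. So a MYC-family activator and a repressor that opposes it were both lower, and their partner did not pass.

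Around VEGFA, 3 of 13 measured ligands and receptors of the VEGF and adrenomedullin systems were called, against 8.50% of all genes. VEGFC, the lymphatic growth factor, rose 1.38-fold (limma adjusted p = 0.023) and KDR, the main VEGF receptor, 1.23-fold (adjusted p = 0.034), both at levels below the median and with calls lost in 4 and 6 of the 6 fits that leave out a single array. KDR, at a level of 2.82, lay below even the 25th percentile of all probe sets (2.93). Its call was also lost with adjustment over all probe sets (adjusted p = 0.086). NRP1, a VEGF co-receptor, was 1.82-fold lower, while its second probe set, at a similar level of 5.65 against 5.68, differed by -0.20 without passing. VEGFB differed by 0.21 (adjusted p = 0.37). Of 19 relatives of CA9, NDRG1 and BNIP3, 0 were called by limma, 2 had an unadjusted p below 0.05, and the smallest adjusted p was that of CA8, at 0.097 and a level below the median.

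**Figure D3:**
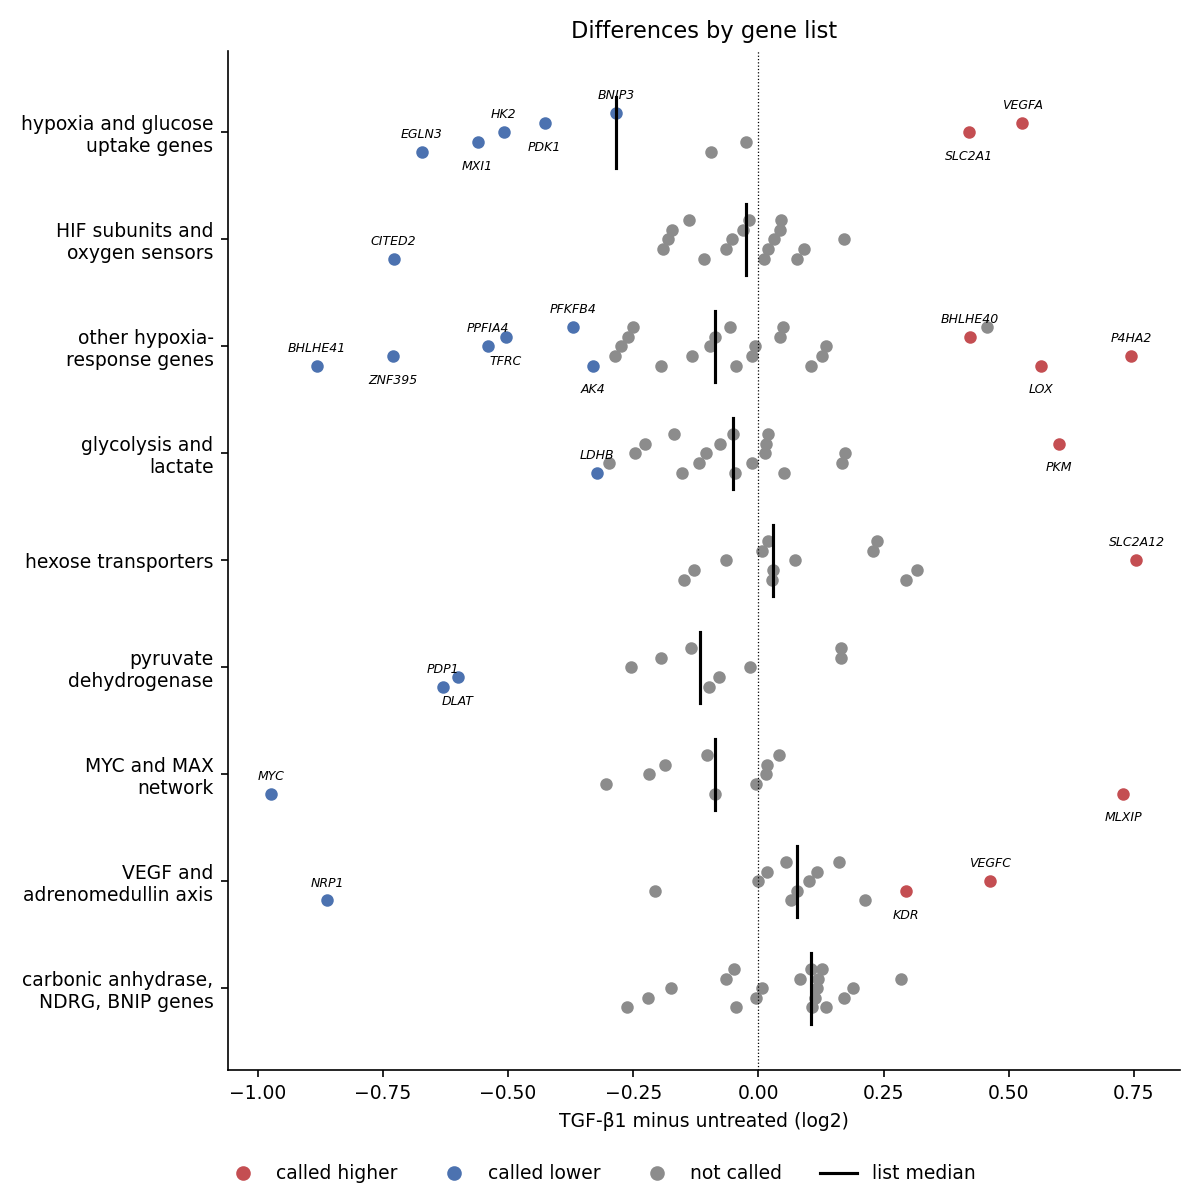
Difference between TGF-β1-treated and untreated arrays (log2, horizontal axis) of every measured gene in 9 lists, 1 point a gene at its brightest probe set, with the called genes named (red higher, blue lower, grey not called). Vertical bars are list medians, at -0.28 for the 9 genes described here and between -0.12 and 0.11 for the other 8 lists.

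Array 1 of each group stood apart on the second principal component, and its GAPDH and ACTB control probe sets, which reflect RNA quality, had the highest 3′ over 5′ signal, at 1.19 and 1.15 (log2) against 0.69 to 0.86 on the other 4. With that signal as a covariate in the fit, 5 of the 9 genes were called lower and 2 higher, as without it. All 8 measured squamous epithelial markers lay above the median level. In treated cells 1 of them was called higher (KRT14) and 2 lower (KRT15 and EPCAM), against 4.03% and 4.47% of all genes. Of all 19775 genes, each read at its brightest probe set, 13107 lay above that median of all probe sets, as did 5 of the 8 measured endothelial and leukocyte markers. The 10 fibroblast markers, of which 4 lay above the median, summed to 8.12 to 8.2 (log2) on the untreated and 8.64 to 8.81 on the treated arrays. Of these 10 genes 1, FAP, was called, a share near the 8.50% of all genes. FAP was also the brightest of the 10 and rose from 7.21 to 8.10, so the sum, taken on the linear scale, mostly follows FAP. The median difference of the 10 was 0.04. The 8 measured endothelial and leukocyte markers summed to 7.65 to 7.72 and 7.78 to 7.8. Among them 1 was called, again near the share over all genes. This was CDH5, which fell by 0.41 (limma adjusted p = 0.03) at a level below the median. The part of these markers in the results was not tested. In RNA from whole cultures, fewer cells of a type and less RNA per cell cannot be told apart.

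**Figure D4:**
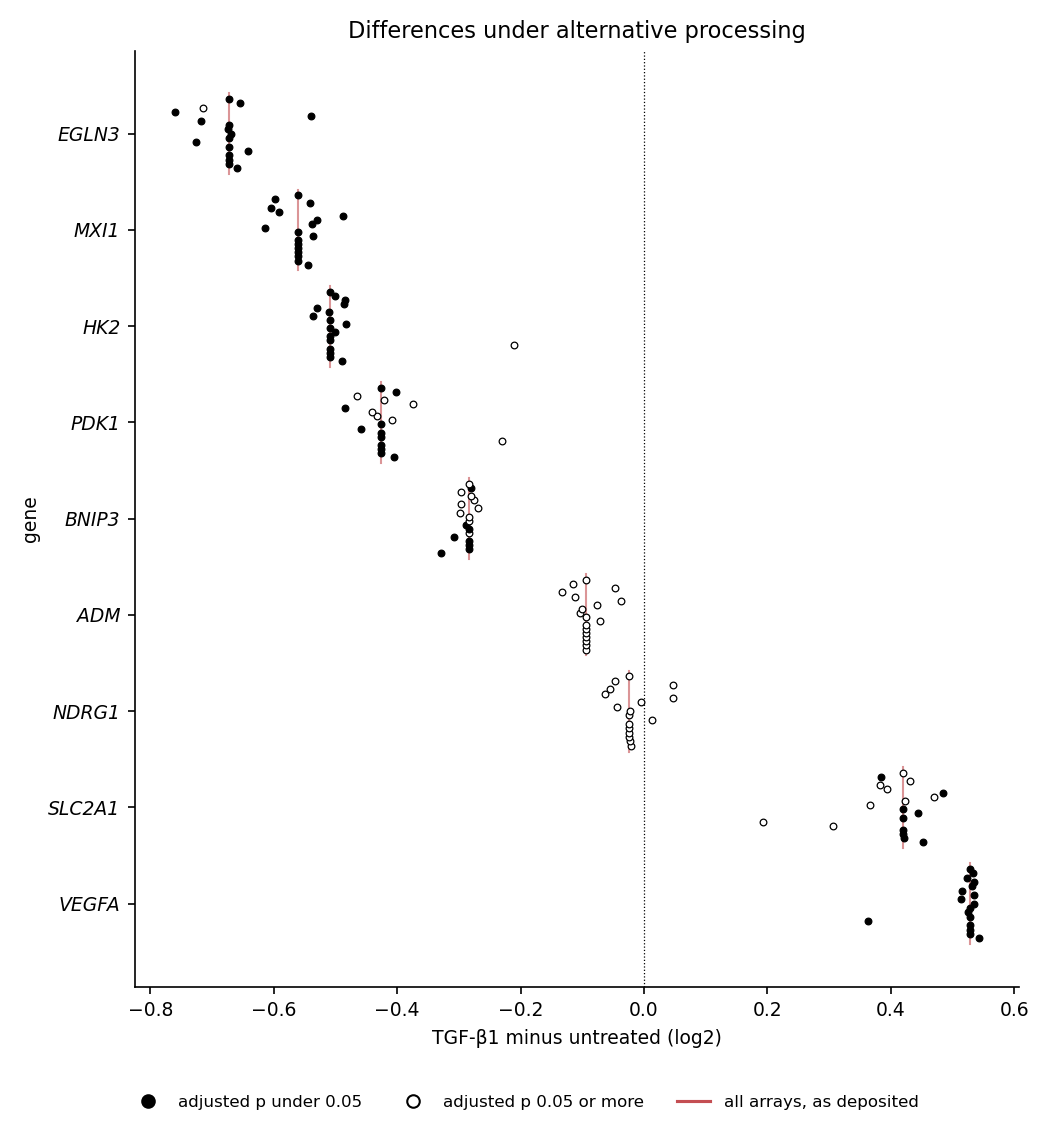
Difference between TGF-β1-treated and untreated arrays (log2, horizontal axis) of the 9 genes under up to 18 alternative analyses each, 1 point an analysis, filled where the adjusted p was below 0.05, with the value from all arrays as a vertical line. MXI1 and VEGFA were called in every analysis that measured them, EGLN3 and HK2 in all but 1, and PDK1, SLC2A1 and BNIP3 in 11, 9 and 8.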

How the data were processed

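Values came from 6 Affymetrix arrays of 54675 probe sets, 3 from untreated and 3 from TGF-β1-treated CaSki cells. Per the submitters' processing notes, the authors made the deposited log2 values with Affymetrix Expression Console and RMA. Versions are not stated there. That the scale is log2 follows from the range of the values (1.57 to 14.5). Without scanner files no detection call was available, so a level is described against the median of all probe sets (4.16). The number of arrays, 3 per group, limits the precision.

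Probe sets were named from the platform annotation, with symbols updated through RefSeq gene numbers (GRCh38.p14): 41091 had 1 symbol, 1801 several and 11721 none, and 0 symbols changed. The brightest probe set on average over the 6 arrays stood for a gene. The test was that of limma 3.58.1 (lmFit, eBayes, no covariate, no filter; R 4.3.3), with Benjamini-Hochberg adjustment over 19775 genes, or over 54613 probe sets where stated. Calls were made at an adjusted p below 0.05, and the script was tested on simulated data. A difference is treated minus untreated. The genes and lists were chosen with earlier results of these data known. Named were all measured genes of the group, up to 4 called members of each related list by p, and relatives of the group by role. HIF1A, BNIP3L, BHLHE40, BHLHE41, PPFIA4, PFKFB4 and AK4 are named outside this rule. Of the listed genes, those without a single-symbol probe set were not analysed here. Promoter windows came from RefSeq.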

Additional observations from a re-analysis of the deposited data

How the results depend on the processing

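Alternatives were other normalisations, filters on dim probe sets, other choices of probe set, other variance models, a replicate block and the removal of arrays. Of the 19775 genes 1680 were called. This was 627 without both arrays numbered 1, 966 with adjustment over all probe sets, 1004 without shared-sequence probe sets, 2629 with a trended robust variance, and 768 to 1326 without single arrays. The 5 lower calls among the 9 genes became 2 without both arrays numbered 1, 3 with averaged probe sets, 3 without shared-sequence probe sets and 3 to 4 without single arrays. The 2 higher calls became 1 without both arrays numbered 1, 1 with averaged probe sets, 1 with adjustment over all probe sets, 0 without shared-sequence probe sets and 1 to 2 without single arrays. Fits with fewer arrays have fewer samples. Without shared-sequence probe sets 6 of the 9 genes were measured, since EGLN3, VEGFA and NDRG1 had no other probe set, and SLC2A1 was read from its dim one. For the remaining losses the cause was not tested. The NDRG1 difference, which never passed, changed sign to 0.012 with array weights and ran from -0.064 to 0.047 without single arrays, the only one above 0 being that without treated array 1, and it was 0.047 without both arrays numbered 1, and the 8 other genes kept their direction in every alternative that measured them. Same-numbered arrays deviated together with r of 0.18, 0.04 and 0.08, the largest for the arrays numbered 1, which also stood apart on the second principal component. No such value was obtained for differently numbered arrays, so these values cannot settle whether the numbers pair the samples. The main fit did not pair them. With the replicate block, 1280 genes, 4 lower and 2 higher calls were obtained, and BNIP3 was the call lost. Scaling moved the median of all genes by less than 0.01.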
